A study of Homo sapiens with 9 samples.

Results

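Fibronectin (FN1), the integrin chains and the laminin chains were measured as RNA in 9 libraries of cells labelled IMR-32, an established human neuroblastoma line with the tissue label Brain. Parental cells (PAR, genotype label WT), cells labelled TRAP-1 knockdown (KD) and cells labelled TRAP-1 overexpression (OE) gave 3 libraries each, and no treatment or time is given in the labels. The sources used here do not tell which construct made each engineered line or whether a line was 1 clone. The members were the protein-coding genes of the table whose symbol is FN1 or matches a pattern for integrin alpha, integrin beta and laminin chains, a pattern that leaves out ITGA2B. Of 38 genes in the annotation that meet this rule, 36 had values, among 22290 genes in all. ITGA5 and ITGAL were not analysed here.

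Fibronectin is a secreted glycoprotein that cells assemble into fibrils outside the membrane. Integrins are pairs of an alpha and a beta chain that hold such matrix proteins outside the cell and link them to actin inside it, and the alpha chain largely sets which protein is bound. Laminins are trimers of an alpha, a beta and a gamma chain that form the sheet of the basement membrane, and in neuroblastoma, matrix-rich mesenchymal cells and neuron-like adrenergic cells are known as separate states.

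Values are regularized log2 levels (rlog), which the authors scaled for library size and pulled toward the mean of each gene. Differences are therefore given as differences in rlog, and how they convert to a fold was not established here. A gene was called at an adjusted p under 0.05 in a linear model of all 9 libraries, adjusted over all 22290 genes. These p-values measure only the spread between libraries, because the RNA was isolated in triplicate and nothing states that the triplicates were separate cultures. The spread was small, with a root mean square distance of 0.0582 to 0.0630 between libraries of a group and 0.137 to 0.255 between libraries of different groups.

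The labels were checked first. TRAP1 read 10.67, 10.66 and 10.65 in the PAR libraries, 10.79, 10.79 and 10.83 in those labelled KD and 10.67, 10.63 and 10.74 in those labelled OE. It was thus higher in all 3 libraries labelled KD than in any PAR library (difference 0.14, adjusted p 1.76e-05), against the label. In the libraries labelled OE the difference was 0.018 (adjusted p 0.643) and the groups overlapped, and only removing the median shift of each 20-Mb stretch of genome made it a call (0.060, adjusted p 0.0496). Exons of other genes cover 28.5% of the TRAP1 exon bases. KD and OE are accordingly used below as names of libraries and not as statements about TRAP1.

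The cell type label was set against marker lists. Of 15 adrenergic neuroblast markers 9 had values and 2 had a mean rlog of at least 8, with ISL1 the most abundant at 9.29. MYCN, which is known to be amplified in IMR-32, had a PAR mean of 2.52, PHOX2A 1.33, TH 2.84 and CHGA 4.07. HAND1, DBH, DDC, STMN2 and ELAVL4 were not analysed here. The list also held higher genes, and 5 of the 9 reached a mean rlog of 5. Over all libraries GATA2 had a mean of 9.20, GATA3 7.27, HAND2 6.34 and CHGB 5.77. Of 13 mesenchymal neuroblastoma markers 12 had values and 11 reached 8, led by VIM at 15.9. The low defining adrenergic markers go against what is known of this line, so the cells are called by their labels only. Log2 summed levels of the mesenchymal list were 17.03, 17.03 and 17.03 in PAR, 17.31, 17.32 and 17.30 in libraries labelled KD and 17.14, 17.13 and 17.14 in libraries labelled OE. The adrenergic list summed to 10.67, 10.63 and 10.64 in PAR, 10.53, 10.51 and 10.55 in those labelled KD and 10.54, 10.62 and 10.59 in those labelled OE. The mesenchymal sum was thus highest in the libraries labelled KD and also above PAR in those labelled OE, but VIM and WWTR1 carry much of it. Of the 12 genes, all with a mean rlog above 5, 8 were called higher and 2 lower in KD, beside 35.6% and 36.2% of genes at that level. In OE 7 were called higher and 3 lower, beside 24.0% and 26.3%. PRRX1 rose most, by 1.29 in KD and 0.69 in OE, followed by MEOX2 (0.53 and 0.44), and TWIST1 rose by 0.43 and 0.28. FOSL1 fell by 0.72 in KD and 0.52 in OE, and RUNX1 fell by 0.59 and 0.42. NOTCH2 rose by 0.29 in KD and fell by 0.10 in OE. Among the 9 adrenergic genes 1 was called higher and 5 lower in KD (11.1% and 55.6%), beside 26.9% and 26.9% of all genes. In OE 0 were called higher and 2 lower (0% and 22.2%), beside 16.9% and 18%. The part of these markers in the member differences was not tested. Bulk RNA cannot separate fewer cells of a kind from less RNA per cell.

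Promoter sequence is shown for 5 members: FN1 and ITGA11, which were lower in the libraries labelled KD and higher in those labelled OE, LAMA3 and LAMB3, which went the other way, and LAMA2, which had the largest difference of all members. The RefSeq promoter table (GRCh38.p14) held 25 of the 36 members; those with no entry included ITGA3, ITGA7, ITGA9, ITGAD, ITGAX, ITGB2, ITGB3, ITGB4, LAMA1 and LAMC3. Each sequence is the 250 bases before the RefSeq start, read 5′ to 3′ on the strand of the gene. Capitals mark matches on either strand to TGACGTCA (the cyclic AMP response element, CRE), TGANTCA (AP-1), GGGCGG (GC box), GGAATG (TEAD) or TATAAA (the box bound by TBP). The windows lie at chr2:215436069-215436318 (minus strand), chr15:68432164-68432413 (minus), chr18:23872770-23873019 (plus), chr1:209652426-209652675 (minus) and chr6:128882888-128883137 (plus), and the LAMA3 window lies 183567 bases after the first annotated start, at the start of a shorter form.
FN1: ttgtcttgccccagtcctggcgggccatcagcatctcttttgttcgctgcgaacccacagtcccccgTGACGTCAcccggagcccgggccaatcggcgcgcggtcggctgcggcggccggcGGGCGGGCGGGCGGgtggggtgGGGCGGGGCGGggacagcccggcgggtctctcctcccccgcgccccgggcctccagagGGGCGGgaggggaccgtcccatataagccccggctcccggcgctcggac
ITGA11: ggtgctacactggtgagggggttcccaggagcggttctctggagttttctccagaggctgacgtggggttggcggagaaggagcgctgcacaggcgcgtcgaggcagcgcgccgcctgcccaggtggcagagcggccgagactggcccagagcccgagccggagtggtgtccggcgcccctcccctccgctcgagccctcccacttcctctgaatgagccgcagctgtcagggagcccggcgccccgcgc
LAMA3: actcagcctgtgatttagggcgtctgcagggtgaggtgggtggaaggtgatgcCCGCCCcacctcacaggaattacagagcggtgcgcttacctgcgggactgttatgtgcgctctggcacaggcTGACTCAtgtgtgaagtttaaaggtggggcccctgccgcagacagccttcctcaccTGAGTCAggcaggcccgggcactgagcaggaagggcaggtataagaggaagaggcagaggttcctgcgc
LAMB3: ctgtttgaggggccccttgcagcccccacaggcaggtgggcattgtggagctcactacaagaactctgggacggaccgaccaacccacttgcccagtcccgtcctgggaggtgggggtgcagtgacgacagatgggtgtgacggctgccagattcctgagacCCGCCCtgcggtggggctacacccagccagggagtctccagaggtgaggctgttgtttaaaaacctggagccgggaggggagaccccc
LAMA2: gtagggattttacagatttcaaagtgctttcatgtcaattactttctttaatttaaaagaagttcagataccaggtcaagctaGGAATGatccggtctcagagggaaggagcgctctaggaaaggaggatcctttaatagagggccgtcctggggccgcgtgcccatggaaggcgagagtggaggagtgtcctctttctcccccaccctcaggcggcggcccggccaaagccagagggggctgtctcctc

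FN1 alone of the 25 matched members held the CRE letters, 183 bases before its start, and these letters occur in 1.65% of all 35116 windows of this length. It also held 6 GC box matches, some of them overlapping, a motif found in 42.6% of all windows and in 13 matched members. LAMA3 held 2 AP-1 matches, 125 and 69 bases before its start, and was the only matched member with any, against 6.57% of all windows. LAMB3 had 1 GC box match, LAMA2 had 1 TEAD match (11.9% of windows, 3 matched members), and ITGA11 had none of the motifs. The TBP box letters (10.7% of windows) were in 1 matched member, ITGA6. FN1 and ITGA11 thus shared none of these motifs, and LAMA3 and LAMB3 shared the GC box. These matches describe letters in a short window and say nothing about which factor was bound.

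**Figure D1:**
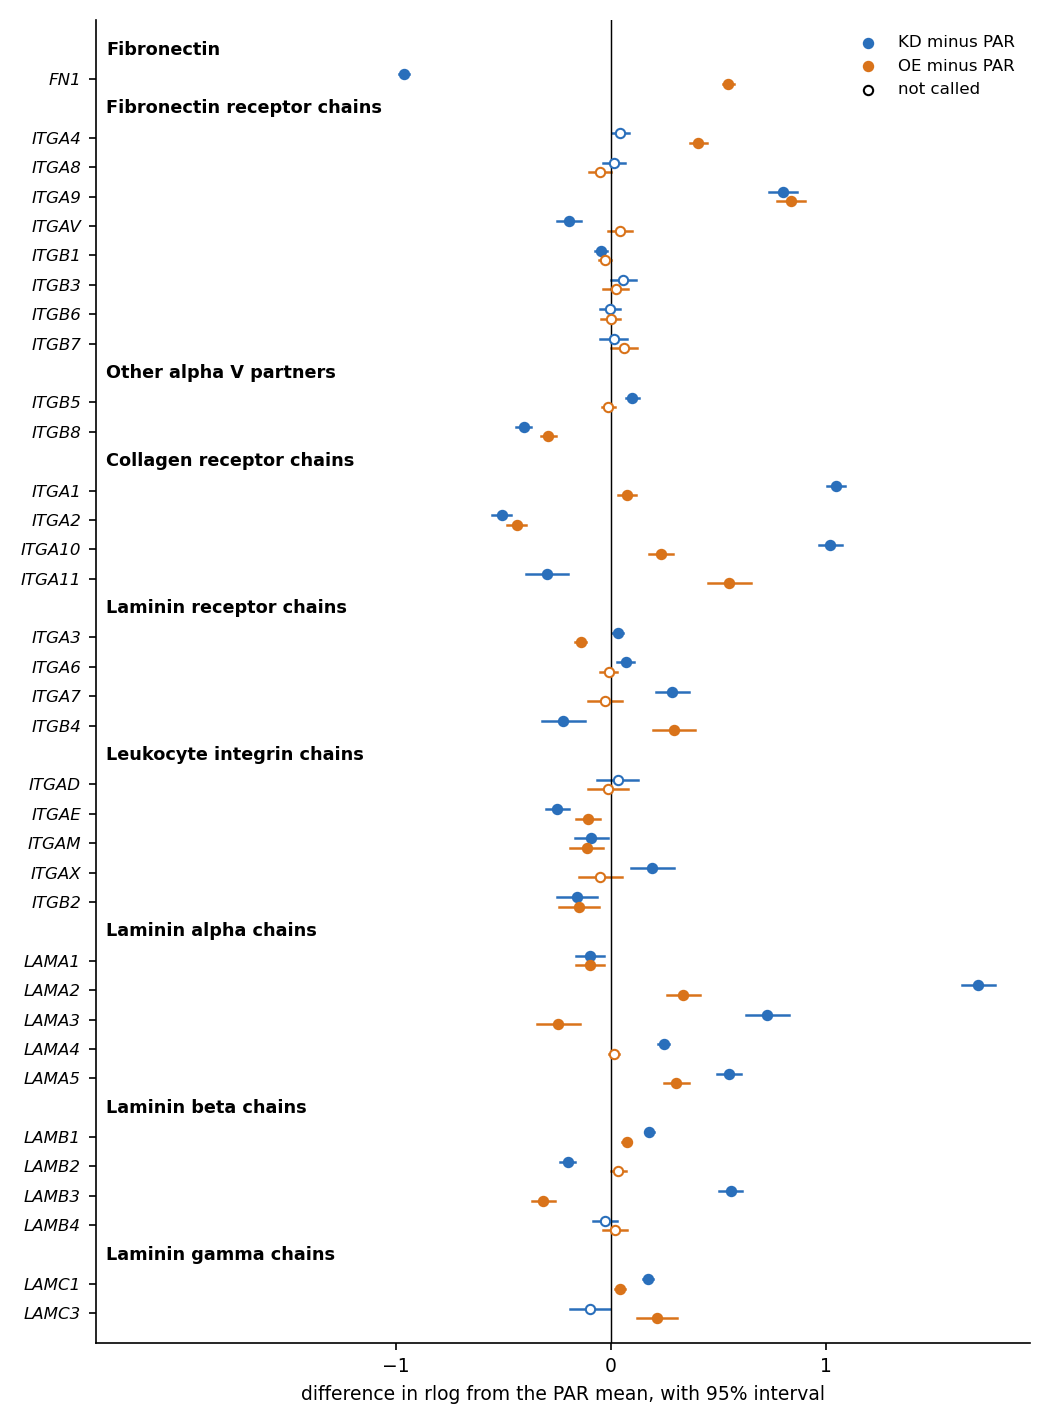
Differences in rlog of members from the PAR mean, by role, with 95% intervals; filled points were called.

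Counts come before the single genes. In the libraries labelled KD against PAR, 15 members were called higher and 13 lower, beside 26.9% and 26.9% of all genes. In the libraries labelled OE against PAR the counts were 12 higher and 10 lower, beside 16.9% and 18% of all genes. The direct comparison of OE against KD had 10 higher and 15 lower, beside 23.5% and 23.8%. The shares of members called were 41.7% and 36.1%, then 33.3% and 27.8%, then 27.8% and 41.7%. Every share lay above that of all genes, but calls are more frequent among abundant genes, so the members were also set beside genes of like level. Among the 28 members whose mean rlog reached 5, the calls were 15 higher and 11 lower for KD against PAR, beside 35.6% and 36.2% of the 14000 genes at that level. For OE against PAR they were 11 and 8, beside 24.0% and 26.3%, and for OE against KD 9 and 14, beside 31.5% and 32.6%. Median member differences were close to zero, 0.022 for KD, 0.0059 for OE and -0.029 for OE against KD, so the members did not shift together. The first 2 comparisons share the PAR libraries and are given side by side only.

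**Figure D2:**
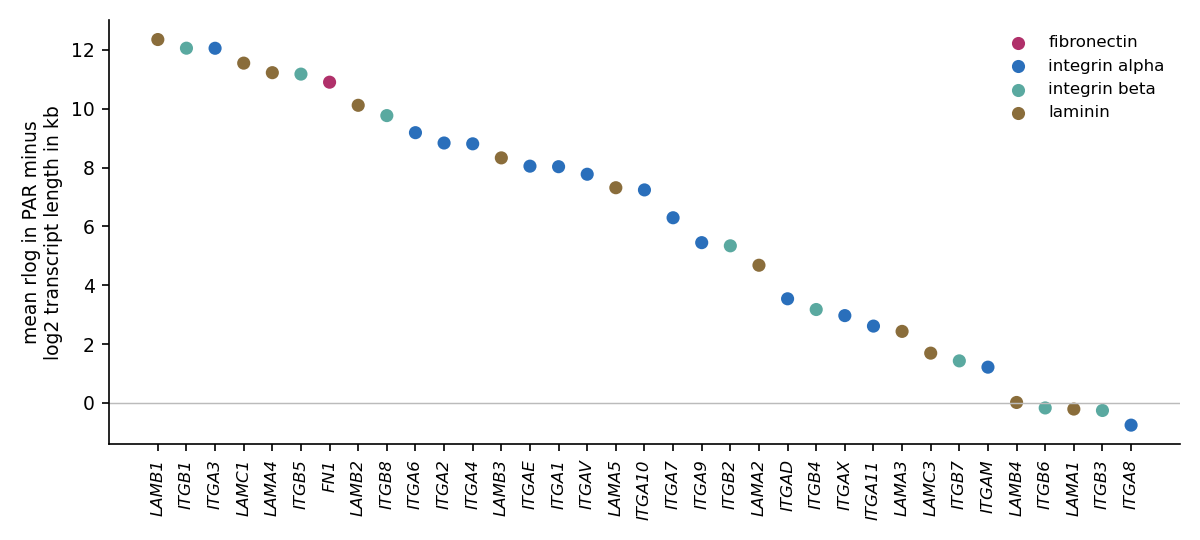
Level per transcript length of members in PAR, in order.

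Levels can be compared between genes only per length, so the log2 of the transcript length in kilobases was taken from the PAR mean rlog. On that log2 scale the most abundant members were LAMB1 (12.35), ITGB1 (12.06), ITGA3 (12.06), LAMC1 (11.55), LAMA4 (11.23), ITGB5 (11.18) and FN1 (10.90). LAMB2, another laminin beta chain, came next at 10.12. The cells therefore carried much RNA of chains that can make up a complete laminin trimer, LAMA4 with LAMC1 and LAMB1 or LAMB2. They also carried much RNA of the ITGA3 and ITGB1 chains that together form a laminin receptor. Among the fibronectin-binding alpha chains with values the order per length was ITGA4 (8.81), ITGAV (7.77), ITGA9 (5.45) and ITGA8 (-0.75). Both ITGA4 and ITGAV lay below the level of ITGB1, the beta chain they can share. At the bottom were LAMB4, ITGB6, LAMA1, ITGB3 and ITGA8, all at 0.016 or less.

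FN1 was the member with the clearest opposite pattern. It was chosen with that pattern in these data already known, so the p-values below describe it and are not separate support. Its rlog was 13.98, 13.97 and 13.97 in PAR, 13.01, 13.02 and 13.00 in the libraries labelled KD and 14.51, 14.52 and 14.52 in those labelled OE. All KD values lay below all PAR values and all OE values above them, with standard deviations of 0.00525, 0.00918 and 0.0108 within the groups. FN1 fell by 0.96 in rlog in KD against PAR (standard error 0.0123, adjusted p 3.01e-33) and rose by 0.55 in OE against PAR (adjusted p 8.17e-26). Between the 2 engineered lines the difference was 1.51 (adjusted p 3.32e-38), the largest rise of any member in that comparison. No exon base of FN1 is shared with another gene, and the median difference of its 20-Mb stretch was 0.0067 for KD and 0.013 for OE. Which splice forms of FN1 were present was not tested.

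**Figure D3:**
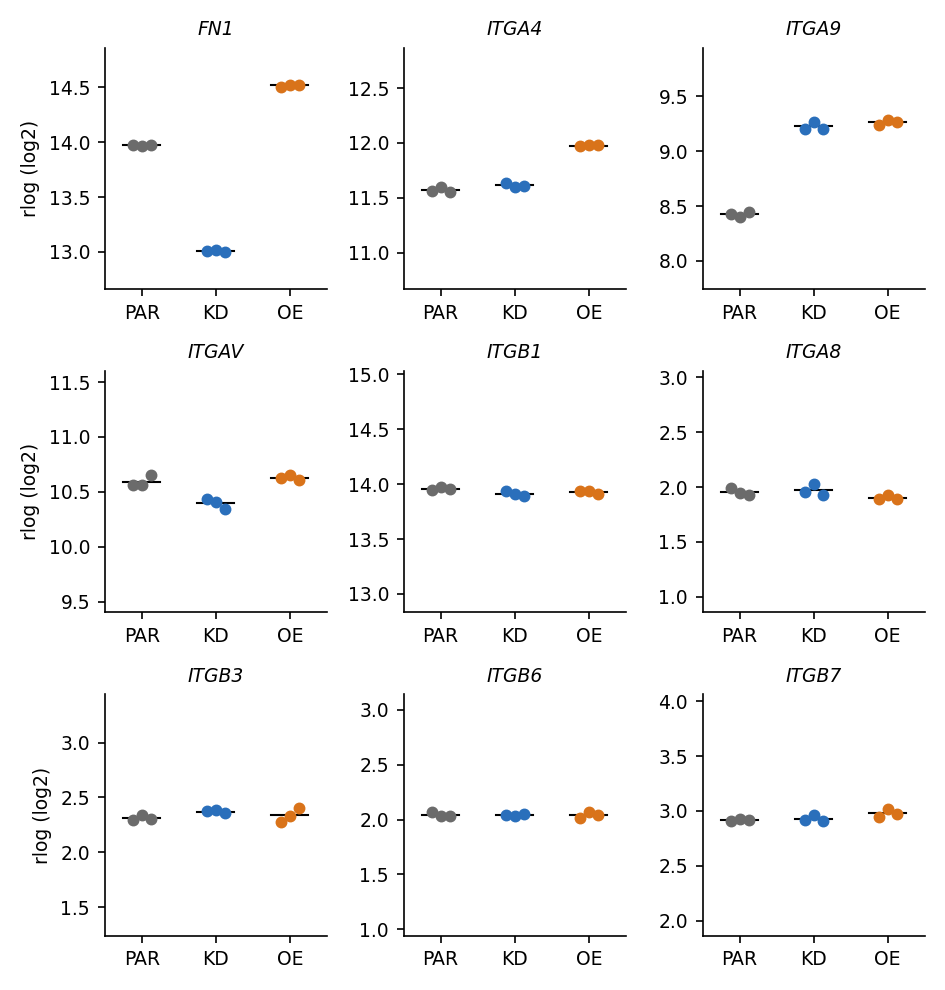
FN1 and the fibronectin receptor chains in each library, on axes of equal span; bars are group means.

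The receptor chains of fibronectin are described next, each by its own values. ITGA5, which pairs with ITGB1 as the main fibronectin receptor, was not analysed here, so the comparison of FN1 with its receptors is incomplete. Of 8 receptor chains with values, 4 reached a mean rlog of 5: ITGA4, ITGA9, ITGAV and ITGB1. In KD against PAR 1 of the 8 was called higher and 2 lower (12.5% and 25.0%, beside 26.9% and 26.9% of all genes). In OE against PAR 2 were called higher and 0 lower, beside 16.9% and 18% of all genes. Counts of so few chains, 4 of them at low values, say little, and none of the 8 was called in opposite directions in the 2 lines.

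ITGA4, the alpha chain that binds the variable region of fibronectin and the vascular ligand VCAM1, read 11.56, 11.59 and 11.55 in PAR. It read 11.64, 11.60 and 11.61 in the libraries labelled KD and 11.97, 11.98 and 11.98 in those labelled OE. The OE values stood apart above both other groups, and the KD values lay just above the PAR values. ITGA4 rose by 0.41 in OE (adjusted p 1.5e-17) and by 0.36 in OE against KD (adjusted p 7.56e-17). In KD the difference was 0.044 and was not called (adjusted p 0.0522), although 5 alternatives made it a call, such as leaving out PAR replicate 2 (0.056). Other genes cover 26.4% of its exon bases, which a library without strand marks cannot separate. ITGA4 thus followed FN1 upward in OE and did not follow it downward in KD.

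ITGA9 encodes an alpha chain that binds the extra domain of cellular fibronectin and tenascin. Its values were 8.42, 8.40 and 8.44 in PAR, 9.21, 9.27 and 9.20 in the libraries labelled KD and 9.24, 9.28 and 9.27 in those labelled OE. Both engineered lines stood above PAR without overlap and overlapped each other. The rises were 0.80 in KD (adjusted p 3.49e-20) and 0.84 in OE (adjusted p 7.47e-20), the largest difference of any member in OE. The lines differed by 0.039 (adjusted p 0.349). The surrounding stretch of chromosome 3 had a median difference of -0.21 in KD and 0.047 in OE, so after removing such medians ITGA9 was -0.24 in OE against KD, a call in the other direction (adjusted p 1.07e-07). Its rises in KD (1.03) and OE (0.79) were kept under that alternative.

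ITGAV pairs with several beta chains and binds the RGD motif of fibronectin and vitronectin. It read 10.56, 10.56 and 10.65 in PAR, 10.43, 10.41 and 10.35 in the libraries labelled KD and 10.63, 10.66 and 10.61 in those labelled OE. KD values lay below all others, and PAR and OE values overlapped. ITGAV fell by 0.19 in KD (adjusted p 2.35e-07), the OE difference of 0.041 was not called (adjusted p 0.276), and OE against KD was 0.24 (adjusted p 8.08e-09). This is the receptor chain that came closest to the FN1 order, with a smaller difference in KD and no call in OE.

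ITGB1, the common beta chain of most matrix receptors, hardly differed. The libraries read 13.95, 13.97 and 13.96 in PAR, 13.94, 13.91 and 13.89 in those labelled KD and 13.94, 13.94 and 13.91 in those labelled OE. All values of both engineered lines were below those of PAR, by a few hundredths. The drop of 0.046 in KD was called (adjusted p 0.00446) but not without a trend of variance on level (adjusted p 0.0719), and it was -0.10 with stretch medians removed. The OE difference of -0.027 was not called (adjusted p 0.122), nor was OE against KD (0.018), while removing stretch medians made both calls (-0.055 and 0.045).

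The remaining fibronectin receptor chains had low values in every group. ITGA8 had group means of 1.96, 1.97 and 1.91, and its OE against KD difference of -0.065 (adjusted p 0.0297) was lost in 5 alternatives, including 3 that leave out a library. With stretch medians removed ITGA8 was also called in KD (0.14), where its stretch had a median of -0.14. ITGB3, the platelet and endothelial partner of ITGAV with 33.2% of exon bases shared, had means of 2.31, 2.37 and 2.34 and was called only in OE against KD without OE replicate 3 (-0.072). ITGB6, an epithelial partner of ITGAV, had a mean of 2.04 in every group and no call. ITGB7, a lymphocyte partner of ITGA4, had means of 2.92, 2.93 and 2.98 and was called in OE against KD only with stretch medians removed (0.085), and 42.3% of its exon bases are shared with other genes. Per length in PAR these 4 were the least abundant of the fibronectin receptor chains.

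ITGB5 and ITGB8 are the 2 abundant partners of ITGAV besides ITGB1. ITGB5, a vitronectin receptor chain, had means of 13.33, 13.43 and 13.31, a rise of 0.099 in KD (adjusted p 6.97e-07) and an OE difference of -0.014 that was called only with stretch medians removed (-0.046). ITGB8, which with ITGAV releases TGF-beta from its latent complex, read 12.90, 12.94 and 12.96 in PAR, 12.54, 12.51 and 12.53 in the libraries labelled KD and 12.63, 12.67 and 12.62 in those labelled OE. The 3 groups did not overlap, with PAR highest and KD lowest. ITGB8 fell by 0.41 in KD (adjusted p 1.52e-19) and by 0.29 in OE (adjusted p 4.26e-15), and OE exceeded KD by 0.11.

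**Figure D4:**
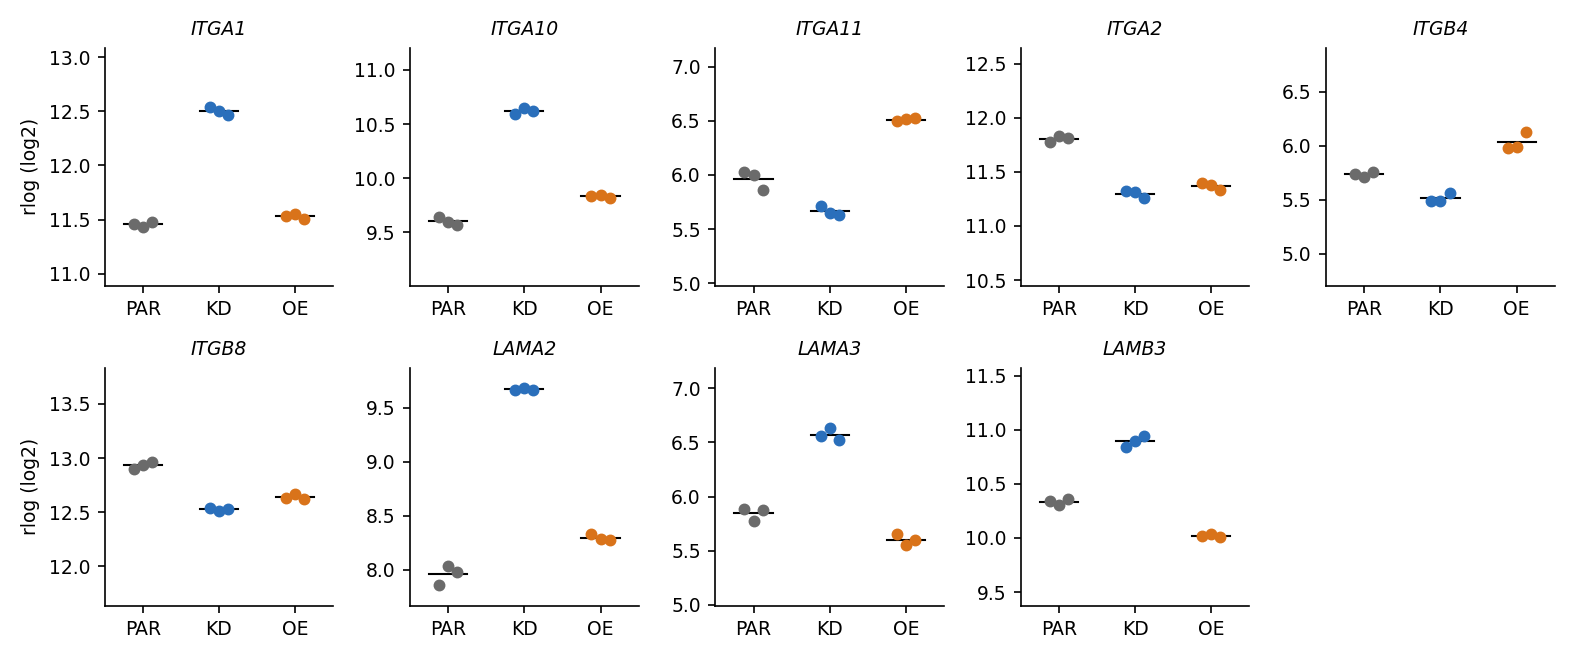
Other members with large differences, in each library, on axes of equal span.

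Collagen receptors held some of the largest differences, and their 4 alpha chains went in different directions. ITGA1, which binds the collagen IV of basement membranes, read 11.46, 11.43 and 11.47 in PAR, 12.54, 12.50 and 12.47 in the libraries labelled KD and 11.53, 11.55 and 11.51 in those labelled OE. The KD values stood far above the rest, and the OE values just above PAR. Its differences were 1.05 in KD (adjusted p 1.47e-28), 0.074 in OE (adjusted p 0.00416) and -0.98 in OE against KD. Of its exon bases 13.2% are shared with another gene.

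ITGA10, a chain best known from cartilage, read 9.64, 9.59 and 9.57 in PAR, 10.60, 10.65 and 10.62 in the libraries labelled KD and 9.83, 9.85 and 9.82 in those labelled OE. The groups did not overlap, and the order was the same as for ITGA1. The rises were 1.02 in KD (adjusted p 4.89e-25) and 0.23 in OE (adjusted p 1.78e-08), with -0.79 between the lines.

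ITGA2 binds fibrillar collagen and lies near ITGA1 on chromosome 5. Its values were 11.78, 11.83 and 11.81 in PAR, 11.32, 11.31 and 11.26 in the libraries labelled KD and 11.39, 11.38 and 11.33 in those labelled OE. Both engineered lines lay below PAR, opposite to its neighbour. ITGA2 fell by 0.51 in KD (adjusted p 2.53e-19) and by 0.44 in OE (adjusted p 7.39e-17). OE exceeded KD by 0.071 (adjusted p 0.00791), a call lost without KD replicate 3 or without OE replicate 1 and enlarged to 0.11 with stretch medians removed.

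ITGA11, the main fibrillar collagen receptor chain of fibroblasts, was the alpha chain that moved as FN1 did. It read 6.03, 6.0 and 5.86 in PAR, 5.71, 5.65 and 5.63 in the libraries labelled KD and 6.49, 6.52 and 6.52 in those labelled OE. No groups overlapped, with KD lowest and OE highest, although PAR replicate 3 lay below the other PAR libraries. ITGA11 fell by 0.30 in KD (adjusted p 3.63e-06), rose by 0.55 in OE (adjusted p 6.79e-11) and was 0.85 apart in OE against KD (adjusted p 6.46e-16). Its level per length of 2.61 was far below that of FN1, so it is a minor chain in these cells. As shown above, its promoter window carries none of the searched motifs that the FN1 window carries.

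All 5 laminin receptor chains, ITGB1 among them, were called in KD against PAR, 3 higher and 2 lower, beside 26.9% and 26.9% of all genes. In OE 1 was called higher and 1 lower, beside 16.9% and 18%. All 5 had a mean rlog of at least 5. Of genes at that level, 35.6% and 36.2% were called in KD and 24.0% and 26.3% in OE. ITGA3, the most abundant of them per length with ITGB1, had means of 14.35, 14.38 and 14.20. It fell by 0.14 in OE (adjusted p 1.29e-10), and the KD difference of 0.031 (adjusted p 0.0389) lost its call in 8 alternatives. ITGA6, the partner of ITGB4 in epithelial anchoring junctions, had means of 11.73, 11.80 and 11.72 and rose by 0.069 in KD (adjusted p 0.00281), with no call in OE. ITGA7, the chain typical of muscle, had means of 8.34, 8.63 and 8.31 and rose by 0.29 in KD (adjusted p 1.12e-07), also with no call in OE, and was -0.31 in OE against KD.

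ITGB4, the beta chain of those junctions, read 5.74, 5.71 and 5.76 in PAR, 5.49, 5.49 and 5.56 in the libraries labelled KD and 5.97, 5.99 and 6.12 in those labelled OE. The groups did not overlap and had the same order as FN1. ITGB4 fell by 0.22 in KD (adjusted p 0.000210), rose by 0.29 in OE (adjusted p 8.69e-06) and differed by 0.52 between the lines (adjusted p 8.82e-11). Like ITGA11 it was scarce, at 3.18 per length against 9.19 for its partner ITGA6.

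Leukocyte integrin chains ranged from low to middling levels. ITGAE, which binds E-cadherin, was the most abundant, with means of 9.98, 9.73 and 9.87, and fell by 0.25 in KD and by 0.11 in OE (adjusted p 1.25e-09 and 0.00176). ITGB2, the shared leukocyte beta chain, had means of 6.83, 6.67 and 6.68, and its drops of 0.16 in KD and 0.15 in OE lost their calls with stretch medians removed (-0.068 and -0.093). The complement receptor chain ITGAX had means of 5.19, 5.38 and 5.14 and rose by 0.19 in KD (adjusted p 0.00131). Its relative ITGAM had means of 3.45, 3.36 and 3.34, with drops of 0.091 in KD and 0.11 in OE whose calls were lost in 6 and 4 alternatives. ITGAD had means of 5.50, 5.53 and 5.49 and no call. None of 4 leukocyte markers with values reached a mean rlog of 5.

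Of 5 laminin alpha chains, 4 were called higher in KD against PAR, beside 26.9% of all genes and 35.6% of those whose mean rlog reached 5. In OE against KD 4 were called lower, beside 23.8% and 32.6%, and with 5 genes these counts are a description only. LAMA2, the alpha chain of muscle and peripheral nerve basement membranes, read 7.86, 8.04 and 7.98 in PAR, 9.66, 9.68 and 9.66 in the libraries labelled KD and 8.33, 8.28 and 8.27 in those labelled OE. The KD values stood apart, and the OE values were just above PAR. LAMA2 rose by 1.71 in KD (standard error 0.0380, adjusted p 5.94e-27) and by 0.34 in OE (adjusted p 1.18e-08), and its OE against KD difference of -1.37 (adjusted p 3.12e-24) was the largest drop of any member there. The largest laminin difference was thus opposite to that of FN1 in KD and of the same sign in OE.

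LAMA4, the abundant alpha chain found in vessels and mesenchyme, had means of 14.08, 14.32 and 14.09 and rose by 0.24 in KD (adjusted p 3.17e-18), with no call in OE. LAMA5, the most widespread alpha chain in adult tissue, had means of 10.83, 11.38 and 11.13 and rose by 0.55 in KD and 0.30 in OE (adjusted p 1.49e-17 and 1.2e-10). LAMA1, an embryonic alpha chain, was low with means of 3.06, 2.96 and 2.96, and its drops of 0.099 and 0.097 lost their calls in 1 and 4 alternatives. The usual beta and gamma partners rose with LAMA4 in KD, by less, and rose slightly in OE, where LAMA4 was not called. LAMB1 had means of 14.85, 15.03 and 14.93 and rises of 0.18 in KD and 0.074 in OE, both called. LAMC1 had means of 14.54, 14.71 and 14.58 with a rise of 0.17 in KD (adjusted p 3.07e-15), and its OE rise of 0.042 (adjusted p 0.00211) lost its call without the variance trend and with stretch medians removed (0.022).

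LAMA3 and LAMB3 are laminin chains typical of epithelia, and their RNAs moved in the same directions. LAMA3 read 5.89, 5.78 and 5.87 in PAR, 6.56, 6.63 and 6.52 in the libraries labelled KD and 5.65, 5.55 and 5.60 in those labelled OE. Its groups did not overlap, with KD highest and OE lowest, the reverse of FN1. LAMA3 rose by 0.73 in KD (adjusted p 1.62e-14), fell by 0.24 in OE (adjusted p 0.000121) and was -0.97 in OE against KD (adjusted p 1.56e-17).

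LAMB3 showed the same order at a higher level, with 10.34, 10.30 and 10.36 in PAR, 10.84, 10.89 and 10.94 in the libraries labelled KD and 10.02, 10.04 and 10.01 in those labelled OE. Again no groups overlapped, and KD was highest. The differences were 0.56 in KD (adjusted p 3.34e-18), -0.32 in OE (adjusted p 2.07e-11) and -0.87 in OE against KD (adjusted p 3.58e-23).

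Epithelial markers were looked at beside them, and 13 of 16 had values, with KRT18 the most abundant at 12.0, while CDH1, KRT19 and CLDN7 were not analysed here. Their log2 summed levels were 12.93, 12.94 and 12.93 in PAR, 12.97, 13.01 and 13.03 in the libraries labelled KD and 12.83, 12.82 and 12.83 in those labelled OE. The sums had the order of LAMA3 and LAMB3 with smaller steps, but they are carried by the abundant genes, and the single markers were mixed. In KD 2 were called higher and 3 lower, beside 26.9% and 26.9% of all genes, with a median difference of -0.025. In OE 2 were called higher and 4 lower, beside 16.9% and 18%, with a median of -0.021. DSP, a desmosome protein, had the order of LAMA3 and LAMB3, with 0.37 in KD, -0.19 in OE and -0.56 in OE against KD, all called. Other markers went with the sums in a single comparison only. KRT8 rose by 0.39 in KD, and CLDN4 fell by 0.57, KRT14 by 0.49 and KRT18 by 0.096 in OE. CLDN4 and KRT18 were not called in KD. Against that order, KRT14 fell by 0.70, KRT7 by 0.27 and KRT17 by 0.086 in KD. Also against it, KRT8 rose by 0.40 and PKP3 by 0.16 in OE. KRT8 and KRT14 thus did not have the order of LAMA3 and LAMB3. The part of these markers in the laminin differences was not tested.

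LAMB2, LAMB4 and LAMC3 are read here beside the stretch of chromosome around them. LAMB2, the beta chain of synapses and kidney filters, had means of 12.63, 12.42 and 12.66, fell by 0.20 in KD and was 0.23 in OE against KD, but its stretch of chromosome 3 had a median of -0.27 in KD. With stretch medians removed both signs turned, to 0.070 (adjusted p 0.000376) and -0.043 (adjusted p 0.0248). LAMC3 had means of 4.59, 4.49 and 4.80, rose by 0.21 in OE (adjusted p 0.000372), and had a KD difference of -0.096 that was not called but was called without KD replicate 3 (-0.13). That difference became 0.23 with stretch medians removed, where the stretch median was -0.32, and the OE against KD difference of 0.31 was then not called. LAMB4 had means of 2.57, 2.54 and 2.59 and was called only in OE against KD with stretch medians removed (0.071). For LAMB2 and LAMC3 the sign in KD thus depended on whether the surrounding stretch was taken into account.

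**Figure D5:**
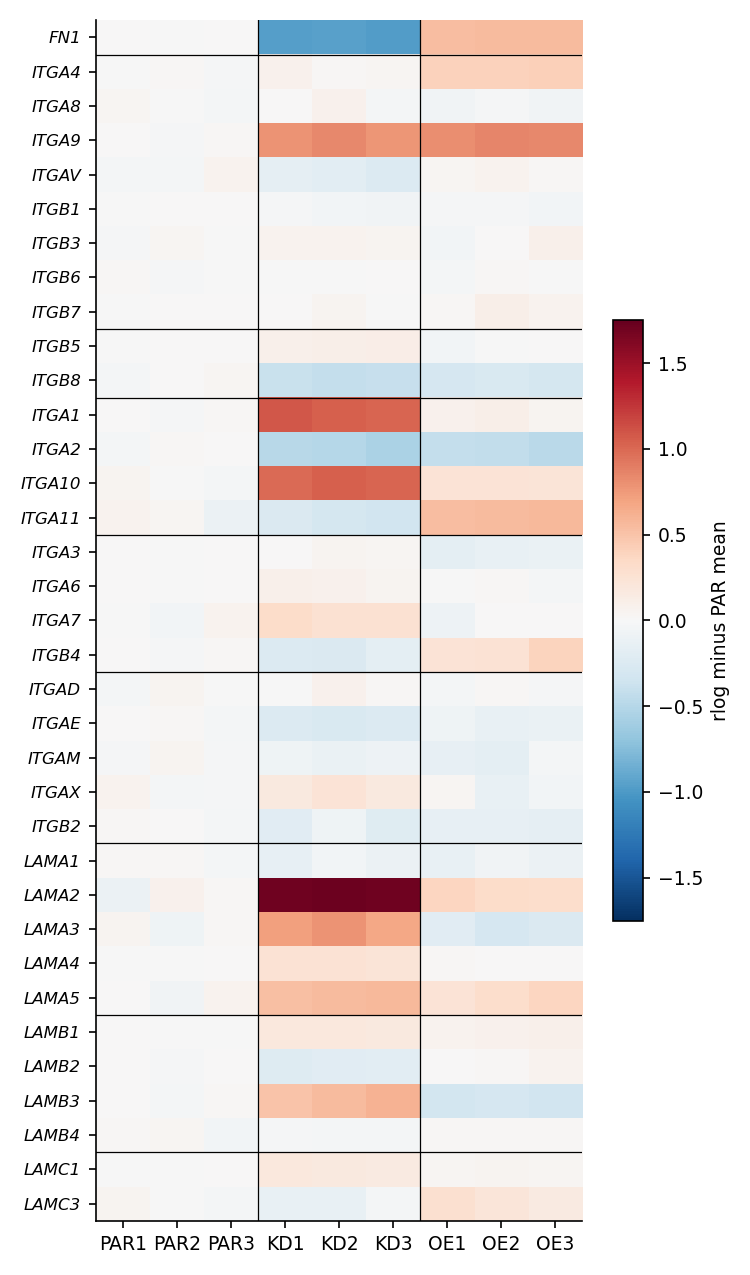
Deviation of members from their PAR means in each library, by role.

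With the comparisons side by side, FN1, ITGA11 and ITGB4 were called lower in KD and higher in OE. In the reverse direction were LAMA3, LAMB3 and, with a KD call that 8 alternatives did not keep, ITGA3. The heat map shows that the columns of a group look alike for every large difference, and leaving out any 1 library kept every call of the members given in full except that of ITGA2 in OE against KD.

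The genes around these members were counted from lists. Of 16 other integrin ligands and matrix partners, 12 had values, and 6 were called higher and 4 lower in KD, 5 and 3 in OE, and 4 and 5 in OE against KD. As shares these were 50.0% and 33.3% in KD (26.9% and 26.9% of all genes), 41.7% and 25.0% in OE (16.9% and 18%), and 33.3% and 41.7% in OE against KD (23.5% and 23.8%). Among the 12, 9 had a mean rlog of at least 5. Of all genes at that level, 35.6% and 36.2%, 24.0% and 26.3%, and 31.5% and 32.6% were called. THBS1, a matrix protein that binds fibronectin and activates latent TGF-beta, fell by 1.48 in KD and by 0.52 in OE. FBLN1, a fibulin that binds fibronectin directly, fell by 0.36 in KD, rose by 0.45 in OE and was 0.82 in OE against KD (adjusted p 1.6e-14), the order of FN1. FBLN5, an elastic fibre protein, rose by 0.76 and 0.44, and LTBP1, which tethers latent TGF-beta to the matrix, rose by 0.31 and 0.47. TGM2 crosslinks fibronectin and fell by 0.37 in KD and 0.49 in OE, but its stretch of chromosome had a median of -0.27 in KD, and with medians removed its KD difference was -0.081 and its OE against KD difference moved from -0.12 to -0.32. FBN1, the main microfibril protein, rose by 0.29 in KD, and its OE difference of -0.052 lost its call in 9 alternatives. EDIL3 and MFGE8, RGD ligands of ITGAV integrins, were 0.30 and -0.32 in OE against KD. The KD call of EDIL3 (-0.12) was lost in 3 alternatives, and MFGE8, not called in OE (-0.049), was called there in 4.

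Basement membrane partners had values for 14 of 14, with 4 called higher and 6 lower in KD, 5 and 4 in OE, and 7 and 4 in OE against KD. The shares were 28.6% and 42.9% in KD, 35.7% and 28.6% in OE and 50.0% and 28.6% in OE against KD, beside the shares of all genes just given. Among the 14, 12 had a mean rlog of at least 5, so the shares of genes at that level apply as well. NID1, which ties laminin to collagen IV, rose by 0.59 in KD and 0.33 in OE, and the collagen IV chains COL4A1 and COL4A2 rose by 0.29 and 0.30 in KD. COL4A1 fell by 0.15 in OE (-0.10 with stretch medians removed), and COL4A2 by 0.072, a call lost under that alternative. NID1 and the 2 collagen chains were thus higher in KD, as LAMB1, LAMC1 and LAMA4 were. SMOC1, a calcium-binding matrix protein, fell by 1.06 in KD and 0.21 in OE. DAG1, the dystroglycan receptor for laminin, fell by 0.58 in KD and by 0.15 in OE, and its KD and OE against KD differences shrank to -0.31 and 0.15 with stretch medians removed. NID2, a relative of NID1 with 30.7% of exon bases shared with other genes, fell by 0.37 in KD, and its OE rise of 0.12 lost its call in 6 alternatives. BCAM, a receptor for LAMA5, rose by 0.68 in OE (adjusted p 2.46e-16) with no call in KD. COL4A5 rose by 0.27 in OE (0.17 with medians removed) and was called in KD only under that alternative (-0.12).

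Focal adhesion adaptors and kinases, the proteins that bind integrin tails to actin and signalling, had values for 31 of 32. Calls were 10 higher and 12 lower in KD, 9 and 7 in OE, and 13 and 11 in OE against KD. The shares were 32.3% and 38.7% in KD, 29.0% and 22.6% in OE and 41.9% and 35.5% in OE against KD. Of genes whose mean rlog reached 5, 35.6% and 36.2%, 24.0% and 26.3%, and 31.5% and 32.6% were called, so in KD the list was near its background. TNS2, a tensin, rose by 0.75 in KD and 0.24 in OE, and its relative TNS3 by 0.16 and 0.22. PXN and TGFB1I1, 2 scaffolds of the paxillin family, rose by 0.31 and 0.30 in KD, and PXN fell by 0.065 in OE (-0.042 with medians removed), with 27.2% of its exon bases shared. The focal adhesion kinase PTK2 fell by 0.31 in KD, or -0.11 with medians removed. Under that alternative it was 0.19 in OE against KD, where it was 0.31, and was called in OE (0.086). SRC fell by 0.29 in KD, a difference that vanished with stretch medians removed (0.00017), and its OE against KD difference of 0.25 became 0.056. In OE SRC was called only without OE replicate 2 (-0.068). BCAR1, a docking protein, fell by 0.37 and 0.23, FLNA by 0.29 and 0.25, and VASP by 0.10 and 0.20 in KD and OE. The FLNA difference of 0.045 in OE against KD lost its call without the variance trend.

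TGF-beta signalling is known to induce FN1, and 11 of 12 listed genes had values. Calls were 3 higher and 5 lower in KD, 0 and 2 in OE, and 3 and 3 in OE against KD. The shares were 27.3% and 45.5% in KD, 0% and 18.2% in OE and 27.3% and 27.3% in OE against KD, beside 26.9% and 26.9%, 16.9% and 18%, and 23.5% and 23.8% of all genes. All 11 had a mean rlog of at least 5. Of genes at that level, 35.6% and 36.2%, 24.0% and 26.3%, and 31.5% and 32.6% were called. Only the share called lower in KD lay above these. The ligand TGFB1 rose by 0.33 in KD, and the target TGFBI rose by 0.43. The receptor gene TGFBR2 fell by 0.38 in KD and was 0.40 in OE against KD, or -0.15 and 0.12 with stretch medians removed. TGFBR1 fell by 0.21 in KD, in a stretch with a median of -0.31, and turned to 0.10 with such medians removed. Its OE against KD difference of 0.27 was then 0.0062 and not called, and its OE difference of 0.062 was called in 5 alternatives. SMAD3 had a rise of 0.042 in KD that lost its call in 5 alternatives and a drop of 0.091 in OE. TGFB2, a ligand with 34.2% of exon bases shared, was 0.20 in OE against KD, and its KD drop of 0.13 lost its call in 4 alternatives. Pathway activity, and its part in the FN1 differences, was not tested.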

How the data were processed

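RNA of 9 libraries (3 each labelled PAR, KD and OE, made with TruSeq RNA v2, which marks no strand) was sequenced. The authors trimmed reads with cutadapt (quality under 20, reads under 36 bp removed), aligned to GRCh38 by HISAT2, took gene counts by featureCounts of Subread, required a total count of 10 per gene and used DESeq2; versions are not given in the sources used here. The paper states a nominal read coverage for the sequencing. The deposited values are regularized log2 levels (rlog), from which the depth reached in each library is unknown. The table's empty KD, OE and PAR columns were not used.

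Group differences were fitted in R 4.3.3 with limma 3.58.1 (variance trend), adjusted by Benjamini-Hochberg over 22290 genes and called at an adjusted p under 0.05. Genes, lengths and shared exon bases came from GENCODE release 44. Promoters were read and figures drawn with Python 3.11.15 and matplotlib 3.10.9. Alternatives were no variance trend, a mean rlog of at least 5, only the 2 groups compared, library medians removed, medians of 20-Mb stretches (at least 10 genes) removed, a replicate block, each library left out, an adjusted p under 0.01 and an unadjusted p under 0.05. Values in every library are given for FN1, and, among members whose mean rlog reached 5, for fibronectin receptor chains and for up to 5 called members that rose and 5 that fell most in each comparison; from each partner list, up to 3 called genes each way are named. Some genes that these rules select are counted but not reported here. The lists were integrin and laminin chains by role, other integrin ligands and matrix partners, basement membrane partners, focal adhesion adaptors and kinases, TGF-beta genes, and cell type markers. The members and lists were chosen with earlier results of these data known.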

Additional observations from a re-analysis of the deposited data

How the results depend on the processing

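Over the alternatives, 26 to 30 members were called in KD against PAR, 19 to 23 in OE against PAR and 23 to 28 in OE against KD; a replicate block left 28, 22 and 25. Every FN1 call was kept in every alternative. Removing medians of 20-Mb stretches turned the sign of ITGA9 in OE against KD (-0.24) and of LAMC3 (0.23) and TGFBR1 (0.10) in KD. It also turned the sign of LAMB2 in KD (0.070) and in OE against KD (-0.043). Under it the SRC difference in KD vanished (0.00017), and TRAP1 gained a call in OE (0.060). Member calls lost in other alternatives were small differences, of ITGA2, ITGA3, ITGA8, ITGAM, ITGB1, ITGB2, LAMA1 and LAMC1. Limits: rlog differences are not folds, and beyond the nominal coverage the depth reached in each library is unknown. With 3 libraries a group and no record of separate cultures, differences between lines and between cultures cannot be told apart. TRAP1 RNA was not lower in the libraries labelled KD. RNA was measured, not protein, surface receptor, pairing of chains or matrix.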
